A study of Xenopus laevis with 15 samples.

Results

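The comparison described here sets Xenobots collected 4 h after an embryo extract was added (Ext_4h, 3 libraries) against Xenobots collected before any stimulus (Ctrl, 3 libraries), across all genes. These are 6 of the 15 libraries of the series, and the libraries were chosen by the names of their columns alone. Xenobots are small self-propelled tissues that form when the animal cap, the prospective ectoderm, is cut from a late blastula of wild-type (WT) Xenopus laevis and left to heal. Here the explants were left for 7 days at 14 °C, and 50 Xenobots were pooled for each library. The extract was a homogenate of 3 blastula embryos in 100 µL of saline, of which 10 µL was added to each 14 mL of culture. The Ext_0h libraries (extract, 0 h) and the ATP_4h libraries (250 µM ATP, 4 h), with 3 each, serve below as further points of comparison. No unstimulated group at 4 h exists in the series, so the extract and the 4 h that had passed cannot be told apart in any difference from Ctrl below. Nothing in the labels says that the libraries of a group came from separate clutches or cultures. P-values therefore measure only the spread between these samples, which may be technical.

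The animal cap heals into a larval-type epidermis, in which multiciliated cells drive fluid and move the tissue, ionocytes exchange ions, and secretory cells release mucus and serotonin above a basal layer of progenitors. Cells that meet a stimulus commonly switch on immediate early genes within minutes, and many of these transcripts are short-lived. Xenopus laevis is an allotetraploid, so many genes exist as an L and an S copy (homeologs), written here with the endings .L and .S. Reads that fit both copies of a gene are divided by estimation, which makes the split between near-identical copies uncertain.

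The 6 libraries held 12.58 M to 20.33 M expected counts each. Ribosomal RNA genes took 20.1% to 39.2% of these, which left 8.58 M to 14.95 M counts for other genes. Levels are given as CPM, counts scaled to the same library total, and are compared only within a gene, since they are not divided by gene length. Of 42638 genes in the table, 24052 were abundant enough to test, and all statements on lists of genes below are about members that passed this filter. The common biological coefficient of variation, the scatter between replicates relative to the level, was 0.189. Replicates 1 and 2 of Ext_4h were closer to each other than any other pair of replicates in the 6 libraries. By a chi-square test on their counts, 11.1% of genes differed at a p under 0.05, against 32.6% to 45.8% of genes in the other 5 pairs, and they were kept as separate samples.

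The libraries matched the label of an epidermal tissue. Markers of multiciliated cells (foxj1, tekt1, tekt2, dnah9, ccdc39) summed to 725, 720 and 704 CPM in the Ext_4h libraries, against 589, 581 and 653 CPM in Ctrl. Of these, foxj1.L and foxj1.S did not share the direction of the sum, with log2 fold changes of -0.15 and -0.08 and overlapping groups. Ionocyte markers (foxi1, atp6v1b1, ca12) summed to 199, 202 and 227 CPM in Ext_4h and to 222, 212 and 187 CPM in Ctrl, with overlapping groups. Secretory and basal markers were also present in every library and overlapped between the groups. Among transcripts of other cell types, the globins hba1.S and hba2.L, the pancreatic factor pdx1 and the notochord signal shh had no count in any of the 6 libraries. Other members of those lists were present, since 2 of 33 blood genes, 2 of 28 endoderm genes and 2 of 16 notochord genes in the table were at 0. Notochord genes summed to 71.4, 77.1 and 55 CPM in Ext_4h, against 85.2, 166 and 66.4 CPM in Ctrl, highest in Ctrl replicate 2.

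Muscle transcripts were present, and they were unequal between libraries. Of the 36 muscle genes in the table, 17 passed the filter, among them ckm.L and troponin genes. These 17 summed to 53.2, 53.1 and 9.82 CPM in Ext_4h, against 144, 303 and 28.8 CPM in Ctrl. Ctrl replicates 1 and 2 were thus the highest of the 6 libraries and Ext_4h replicate 3 the lowest, while Ctrl replicate 3 lay below Ext_4h replicates 1 and 2. In bulk RNA, fewer cells of a type and less RNA per cell cannot be told apart. Values for the same libraries stand beside each result below that moves in this pattern.

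The difference between Ext_4h and Ctrl was small for single genes. In edgeR's quasi-likelihood test, with p-values adjusted by Benjamini-Hochberg over all 24052 genes, 0 genes (0%) had an adjusted p under 0.05, and the smallest adjusted p was 0.184, for rhob.L and znf703.L. An unadjusted p under 0.05 was reached by 1749 genes, of which 891 were higher in Ext_4h (3.70% of genes tested) and 858 lower (3.57%). DESeq2 called 13 genes at an adjusted p under 0.05, of which 4 were higher in Ext_4h and 9 lower. The words higher and lower are used below for such genes, and no single gene is a call. In 1455 genes (6.05%) all 3 Ext_4h libraries lay above all 3 Ctrl libraries, and in 1366 genes (5.68%) all 3 lay below. At an unadjusted p under 0.05 and a fold of 2 or more, 198 genes were higher and 330 lower.

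The number of genes at an unadjusted p under 0.05 depended on single libraries. Without Ext_4h replicate 1 there were 407 higher and 530 lower genes, and without Ext_4h replicate 2 there were 420 and 558. Without Ext_4h replicate 3, the library with the least muscle RNA, there were 1854 and 1648, and 2 lower genes, rhob.L and LOC108697896 (the second one named after its value was seen), had an adjusted p under 0.05. Leaving out Ctrl replicate 1 gave 549 higher and 606 lower genes, and leaving out Ctrl replicate 2 gave 595 and 425. Without Ctrl replicate 3 there were 1623 higher and 1420 lower genes. Counts in gene lists from these fits, given below, are to be read beside these counts over all genes. A further fit used below had the muscle level of each library as a covariate. In it, 673 of the 891 higher genes and 363 of the 858 lower genes kept an unadjusted p under 0.05 and their direction. Genes that reached this p only with the covariate are not in these 2 counts.

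**Figure D1:**
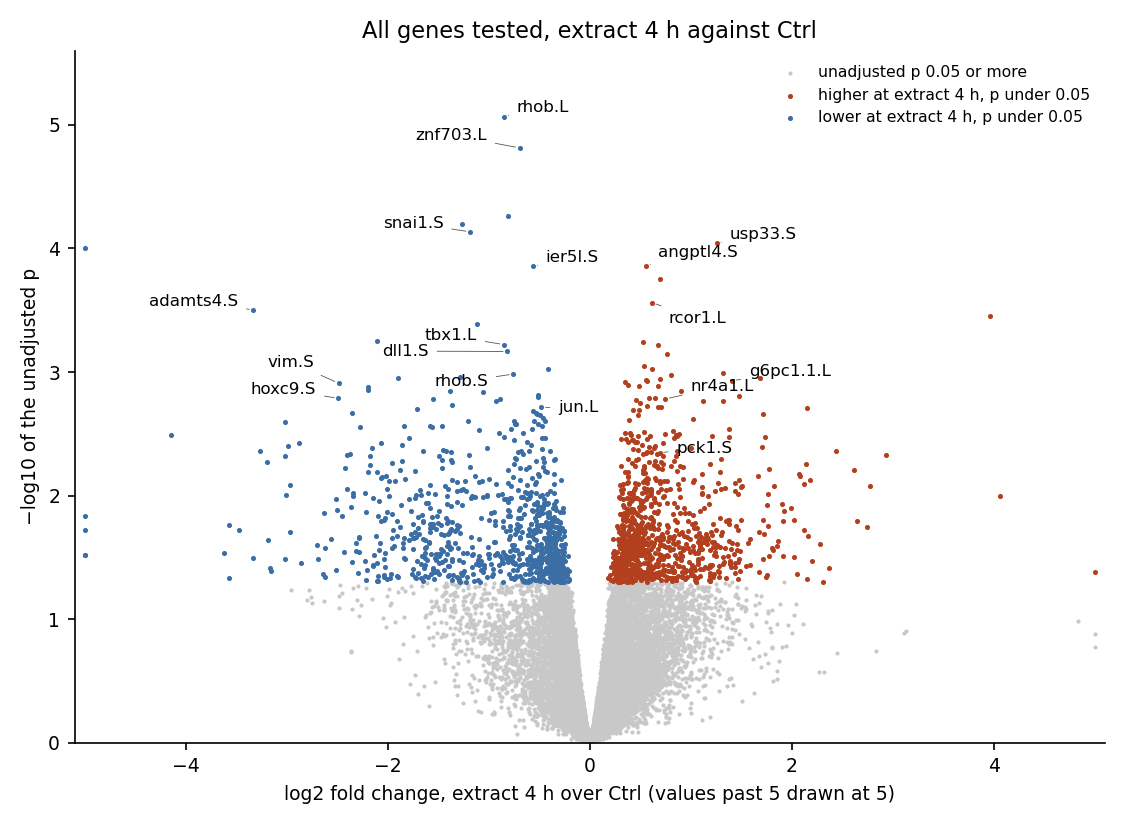
Each point is 1 of the 24052 genes, placed by its log2 fold change, Ext_4h over Ctrl (x axis, values past 5 drawn at 5), and by −log10 of the unadjusted p of edgeR's quasi-likelihood test (y axis). The 891 higher genes at a p under 0.05 are red, the 858 lower ones blue and all others grey, and the points highest on the plot are rhob.L and znf703.L, both lower in Ext_4h.

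Of the 12 lower genes with the smallest p, 8 have a name with a known role and 4 are uncharacterised. rhob.L encodes a small GTPase whose transcript is short-lived and induced by growth factors and stress. It had 24.8, 29.2 and 35.0 CPM in Ext_4h, against 47.5, 57.1 and 55.2 CPM in Ctrl. All 3 Ext_4h libraries lay below all Ctrl libraries, with a log2 fold change of -0.84 (SE 0.13) and an edgeR p of 8.55e-06. Its homeolog rhob.S had 30.3, 35.7 and 51.1 CPM in Ext_4h, against 65.1, 65.9 and 66.6 CPM in Ctrl, and lay in the same direction (log2 fold change -0.76). The zinc finger repressor gene znf703.L had 31.5, 32.8 and 36.3 CPM in Ext_4h, against 57.5, 52.0 and 53.3 CPM in Ctrl. Each group was tight and the groups did not meet, with a log2 fold change of -0.70 (SE 0.11) and an edgeR p of 1.53e-05. Its homeolog znf703.S was lower too, with a log2 fold change of -0.44.

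Transcripts of transcription factors and a Notch ligand followed. snai1.S, a repressor of cadherin genes in mesoderm and neural crest, had 4.40, 3.72 and 3.67 CPM in Ext_4h, against 8.57, 9.93 and 8.17 CPM in Ctrl. The lowest Ctrl library stood well above the highest Ext_4h library, with a log2 fold change of -1.18 (SE 0.22) and an edgeR p of 7.33e-05. tbx1.L, a T-box factor of the pharyngeal region and ear, had 3.64, 3.88 and 3.67 CPM in Ext_4h, against 6.74, 6.22 and 7.29 CPM in Ctrl. dll1.S, which encodes a Notch ligand, had 4.26, 3.98 and 4.06 CPM in Ext_4h, against 7.20, 8.68 and 5.61 CPM in Ctrl. The 3 Ext_4h libraries were nearly equal for both genes, and the log2 fold changes were -0.85 for tbx1.L and -0.82 for dll1.S. The copy dll1.L was scarce, at 0.688 to 1.18 CPM in Ext_4h and 0.982 to 1.70 CPM in Ctrl, and its groups overlapped.

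ier5l.S, named for its relation to an immediate early response gene, had 16.2, 17.8 and 21.4 CPM in Ext_4h, against 28.2, 26.8 and 26.4 CPM in Ctrl (log2 fold change -0.56, SE 0.11). zfp36l1.S, which encodes a protein that binds AU-rich messenger RNAs and speeds their decay, had 36.4, 41.5 and 45.8 CPM in Ext_4h, against 55.1, 58.2 and 51.7 CPM in Ctrl. In neither gene did the groups overlap. The remaining genes among the 12 lower with the smallest p were the uncharacterised LOC108696925, LOC108696922, LOC108701205 and LOC108703704, with log2 fold changes of -0.81, -1.26, -1.12 and -2.10. LOC108703704 was scarce, with 0.756, 0.568 and 0.262 CPM in Ext_4h, against 2.29, 3.36 and 1.12 CPM in Ctrl.

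The leading lower genes differed in their dependence on the muscle-rich Ctrl libraries. Without Ctrl replicates 1 and 2, which leaves 1 Ctrl library, the log2 fold change was -0.89 for rhob.L and -0.66 for znf703.L. It was -1.05 for snai1.S, -0.96 for tbx1.L and -0.45 for dll1.S. With the muscle covariate the same 5 genes had -0.92, -0.78, -1.03, -0.96 and -0.74. Without Ctrl replicates 1 and 2 the change of dll1.S shrank most of the 5, from -0.82, and Ctrl replicate 3 was its lowest Ctrl library. With the covariate the change of snai1.S shrank most, from -1.18.

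**Figure D2:**
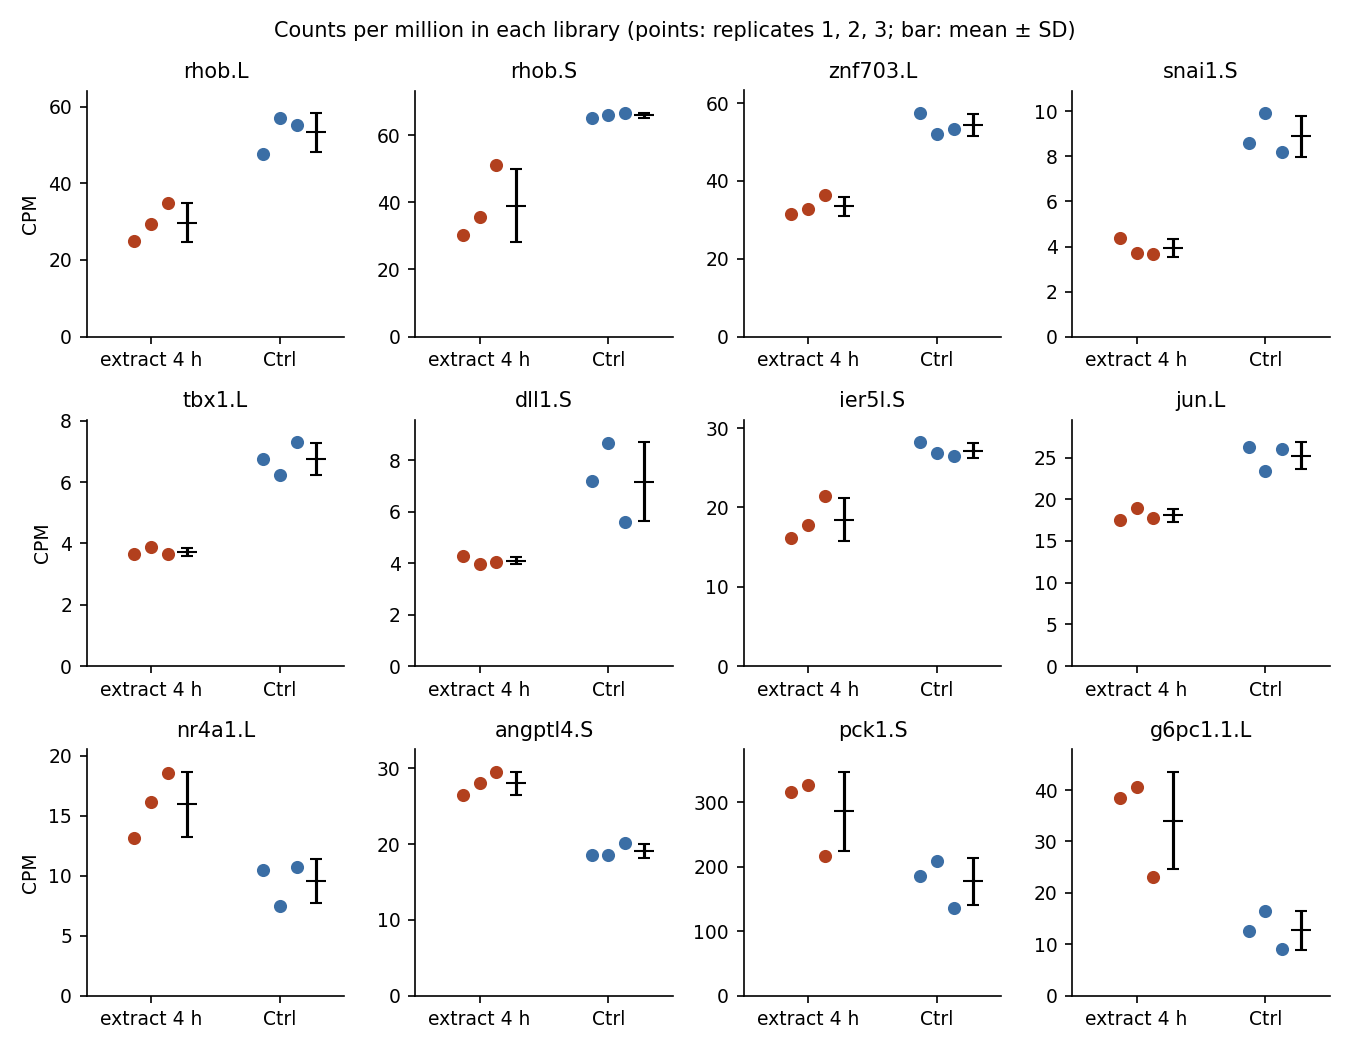
Panels show the level in CPM (y axis, from 0) of 12 genes described in the text, with the libraries of Ext_4h on the left and of Ctrl on the right (points, replicates 1 to 3) and the mean ± SD of each group (bars, n = 3). In each panel the 3 Ext_4h points lie on 1 side of the 3 Ctrl points, closest together in pck1.S.

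Genes higher in Ext_4h were led by usp33.S, which encodes a deubiquitinating enzyme. It had 5.43, 5.89 and 3.54 CPM in Ext_4h, against 1.77, 2.06 and 2.40 CPM in Ctrl. Ext_4h replicate 3 was the lowest of its group but above every Ctrl library, and the log2 fold change was 1.26 (SE 0.24, edgeR p 9.06e-05). Its copy usp33.L had 21.2, 15.97 and 15.7 CPM in Ext_4h, against 13.2, 13.6 and 16.1 CPM in Ctrl, with overlap. rcor1.L, a subunit of the CoREST corepressor complex, had 13, 12.6 and 12.6 CPM in Ext_4h, against 6.87, 8.90 and 9.14 CPM in Ctrl, with a log2 fold change of 0.62. rreb1.S, a zinc finger factor that acts downstream of Ras signalling, had 75.9, 72.8 and 63.4 CPM in Ext_4h, against 40.3, 39.9 and 52.3 CPM in Ctrl. Both copies of rreb1 were higher without overlap, with log2 fold changes of 0.68 for rreb1.S and 0.53 for rreb1.L.

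Further genes in this set act on small GTPases and at membranes. fam13a.S, which encodes a protein with a GTPase-activating domain, had 4.74, 4.19 and 4.06 CPM in Ext_4h, against 2.42, 2.55 and 2.64 CPM in Ctrl. rhobtb1.L, an atypical GTPase, had 57.8, 57.9 and 41.0 CPM in Ext_4h, against 34.4, 35.1 and 38.5 CPM in Ctrl. In the other copies, fam13a.L and rhobtb1.S, the groups overlapped. tmem266.L, which encodes a voltage-sensor domain protein, had a log2 fold change of 0.62, and ccdc149.L, a coiled-coil protein gene, one of 0.81. The copy ccdc149.S had one of 0.04. The uncharacterised LOC108716793, LOC108695694, LOC121401677 and LOC121394475 completed the 12 higher genes together with angptl4.S, described next, and had log2 fold changes of 0.69, 0.53, 1.32 and 1.68.

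Single genes of glucose and lipid handling were higher in Ext_4h, while their lists as a whole were near the background. angptl4.S encodes a secreted inhibitor of lipoprotein lipase that fasting, glucocorticoids and PPAR signalling induce in mammals. It had 26.5, 28.1 and 29.5 CPM in Ext_4h, against 18.6, 18.5 and 20.1 CPM in Ctrl, with a log2 fold change of 0.56 (SE 0.11, edgeR p 0.000137). The copy angptl4.L had 29.6, 27.8 and 33.7 CPM in Ext_4h, against 18.1, 21.1 and 25.9 CPM in Ctrl, again without overlap. pck1.S, the cytosolic enzyme that commits carbon to glucose synthesis, had 316, 326 and 216 CPM in Ext_4h, against 185, 209 and 137 CPM in Ctrl. Its lowest Ext_4h library stood just above its highest Ctrl library, and the log2 fold change was 0.69 (SE 0.21). The copy pck1.L had 531, 541 and 461 CPM in Ext_4h, against 427, 462 and 308 CPM in Ctrl, and the groups overlapped narrowly.

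The last step of glucose release is catalysed by glucose-6-phosphatase, and g6pc1.1.L was singled out after its values were seen. It had 38.4, 40.6 and 23.2 CPM in Ext_4h, against 12.5, 16.5 and 9.06 CPM in Ctrl, with a log2 fold change of 1.41 (SE 0.34). The groups did not overlap, and they were also apart in g6pc1.3.L and g6pc1.3.S, with log2 fold changes of 0.59 and 0.62. In g6pc1.1.S the groups overlapped, at 23.6, 22.2 and 11.3 CPM in Ext_4h, against 2.55, 14.4 and 3.53 CPM in Ctrl. pdk4.S, a kinase that restrains pyruvate oxidation, had 24.5, 24.6 and 23.5 CPM in Ext_4h, against 20.2, 16.5 and 19.1 CPM in Ctrl. The means of Ext_0h lay between those of Ext_4h and Ctrl for both leading genes, with 19.1, 30.01 and 22.8 CPM of g6pc1.1.L and 195, 232 and 194 CPM of pck1.S. Over the list of glycolysis, gluconeogenesis and citric acid cycle genes, 2 of 81 members were higher and 3 lower, with a median log2 fold change of -0.09. This list did not hold g6pc1.1.L or g6pc1.3.L, so its counts leave these genes of glucose release out. Of 127 genes of lipid and sterol handling, 6 were higher and 1 was lower, 4.72% higher against 3.70% of all genes.

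Apart from a ribosomal RNA gene, the largest folds without overlap lay in scarce genes. barx2.S, a homeobox factor, had 2.41, 1.55 and 1.11 CPM in Ext_4h, against 0.458, 0.492 and 0.561 CPM in Ctrl (log2 fold change 1.73). Its more abundant copy barx2.L had 57.8, 53.6 and 51.4 CPM in Ext_4h, against 31.8, 37.6 and 47.2 CPM in Ctrl (log2 fold change 0.48). Both copies of barx2 were thus higher without overlap, by very different folds. The other 4 largest folds among the higher genes were in uncharacterised genes, LOC121393390 with 3.23, 2.53 and 1.05 CPM in Ext_4h, against 0.393, 0 and 0.801 CPM in Ctrl, and LOC121400458, LOC121399387 and LOC121394475 with log2 fold changes of 2.14, 1.77 and 1.68.

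Among lower genes the largest folds included vim.S, the gene of the intermediate filament protein vimentin, with 1.38, 1.14 and 0.262 CPM in Ext_4h, against 4.91, 8.95 and 1.52 CPM in Ctrl. mybph.S, a myosin-binding protein gene of muscle, had 0.963, 0.258 and 0.131 CPM in Ext_4h, against 1.77, 5.14 and 1.04 CPM in Ctrl. hoxc9.S had 0.756, 0.723 and 0.196 CPM in Ext_4h, against 3.40, 4.97 and 1.04 CPM in Ctrl. In all 3 genes Ctrl replicate 2 was highest and Ext_4h replicate 3 lowest, the order that the muscle transcripts also had. With the muscle level of each library as a covariate, an alternative chosen after the data were seen, the log2 fold changes were -1.27 for vim.S, -0.88 for mybph.S and -1.28 for hoxc9.S, against -2.49, -2.63 and -2.49 without it. LOC121402230, uncharacterised, had a log2 fold change of -2.35. LOC121401717 is annotated by RefSeq as a ribosomal RNA gene and had 0.0688, 0.103 and 0.0655 CPM in Ext_4h, against 88.0, 25.99 and 47.2 CPM in Ctrl. It was also nearly absent from 1 library of Ext_0h (0.123 CPM) and 1 of ATP_4h (0.104 CPM), so its absence was not limited to Ext_4h.

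Immediate early genes lay in both directions. Of 104 tested, 7 were higher and 11 lower, 6.73% and 10.6% against 3.70% and 3.57% of all genes, and the median log2 fold change was -0.02. The AP-1 subunit gene jun.L, chosen after its values were seen like the other genes of this paragraph, had 17.5, 19.0 and 17.7 CPM in Ext_4h, against 26.2, 23.4 and 26.04 CPM in Ctrl. jun.S was also lower without overlap, with a log2 fold change of -0.50 beside -0.48 for jun.L. The orphan nuclear receptor gene nr4a1.L went the other way, with 13.1, 16.2 and 18.5 CPM in Ext_4h, against 10.5, 7.47 and 10.7 CPM in Ctrl. Its copy nr4a1.S had 7.01, 6.82 and 13.6 CPM in Ext_4h, against 6.28, 4.16 and 5.77 CPM in Ctrl, and the log2 fold changes were 0.75 for nr4a1.L and 0.76 for nr4a1.S. The related nr4a2.S and the kinase genes sik1.S and pim1.S were also higher, with log2 fold changes of 0.92, 0.69 and 0.33. fos.L, a short-lived AP-1 partner of jun, had 3.03, 3.05 and 4.13 CPM in Ext_4h, against 3.73, 3.31 and 2.64 CPM in Ctrl. egr1.L had 43.0, 44.2 and 58.5 CPM in Ext_4h, against 38.4, 25.2 and 50.3 CPM in Ctrl, and both genes overlapped between groups. Without Ext_4h replicate 3, 6 members were higher and 20 lower, and without Ctrl replicate 2 2 were higher and 10 lower. Without Ext_4h replicate 1 the lower count was 7. No count is given without both Ctrl replicates 1 and 2, since that fit rests on 1 Ctrl library.

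**Figure D3:**
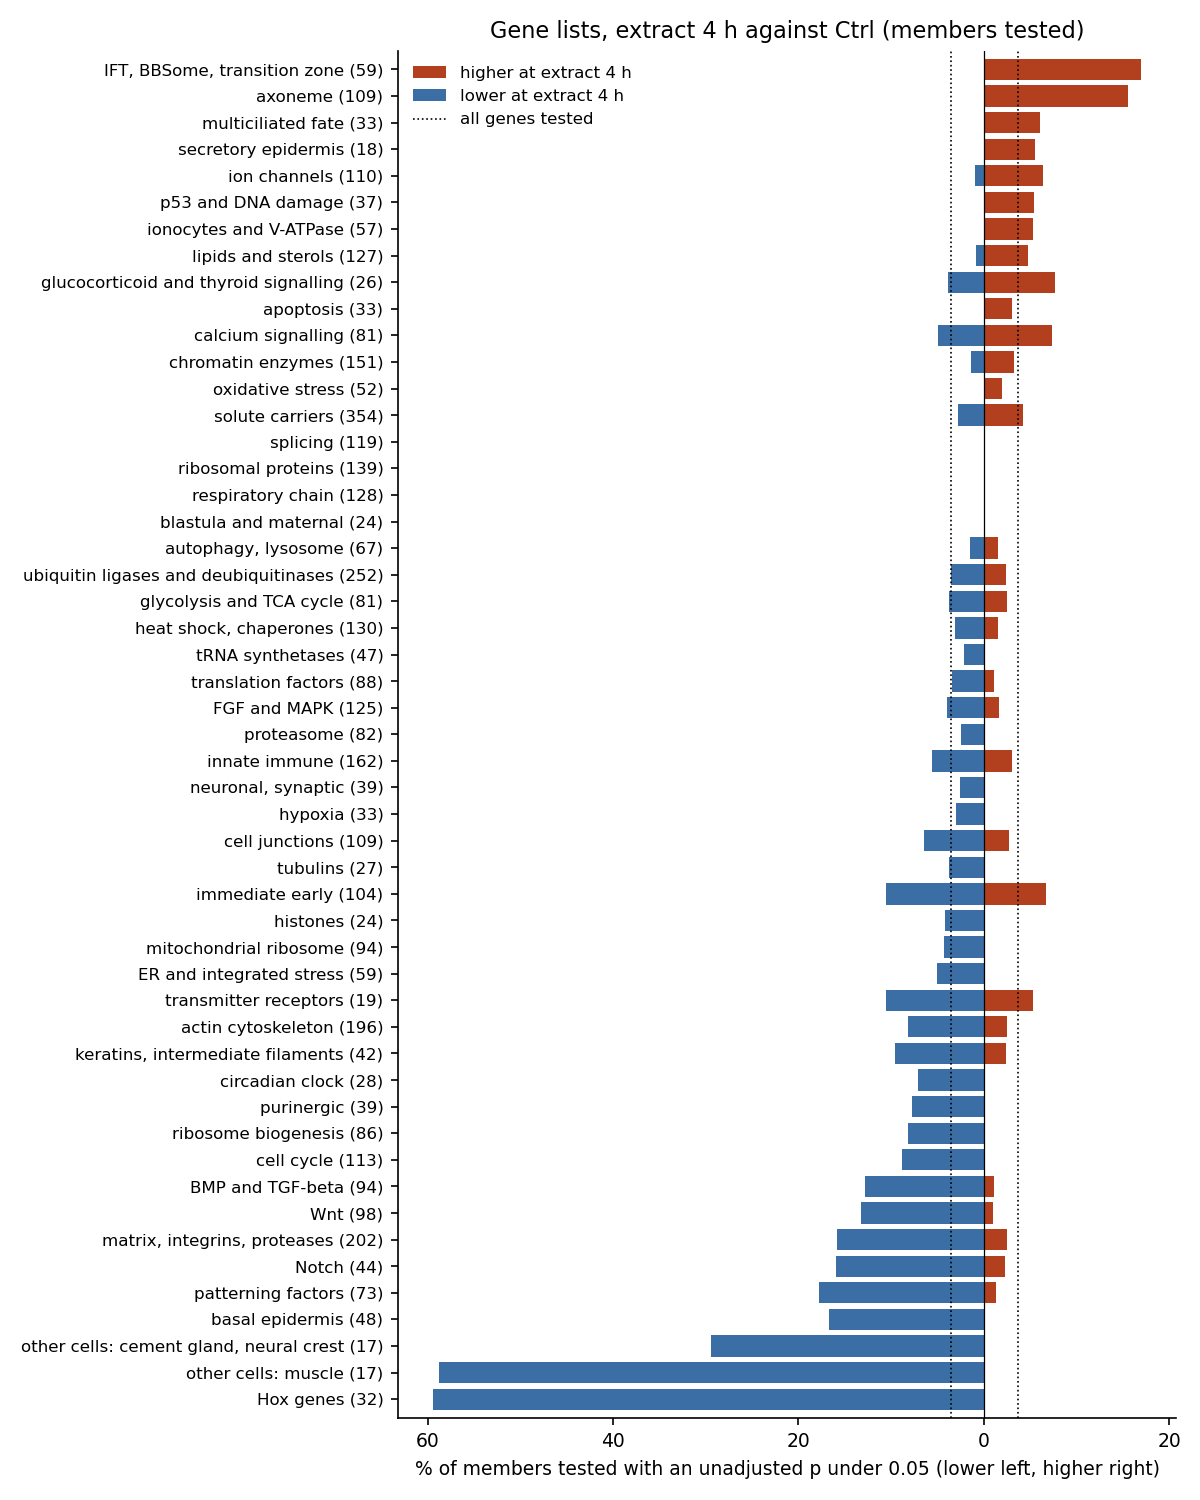
Bars give the percentage of tested members of each gene list with an unadjusted p under 0.05 in Ext_4h against Ctrl, higher to the right and lower to the left, with the number of members tested in brackets and dotted lines at the percentages over all genes (3.70 and 3.57). Cilia lists reach furthest to the right, and Hox genes, muscle genes and the cement gland and neural crest genes furthest to the left.

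Genes of motile cilia were slightly higher in Ext_4h. In the list of axoneme genes, which build the microtubule core and dynein arms, 17 of 109 members were higher and 0 lower at an unadjusted p under 0.05 (15.6% against 3.70% of all genes higher). The log2 fold change was above 0 in 95 of the 109, with a median of 0.19 beside 0.00 over all genes. Their summed level was 4634, 4574 and 4415 CPM in Ext_4h, against 3683, 3670 and 4065 CPM in Ctrl. The groups did not overlap, and Ctrl replicate 3 was the closest to Ext_4h. cfap298.L, a factor for dynein arm assembly, had 6.26, 7.75 and 8.84 CPM in Ext_4h, against 4.39, 3.94 and 5.61 CPM in Ctrl (log2 fold change 0.73). dnaaf8.L had 28.3, 27.5 and 22.5 CPM in Ext_4h, against 22.4, 17.4 and 20.8 CPM in Ctrl. The groups of dnaaf8.L nearly met. dnah11.L, a dynein heavy chain gene, had 3.71, 3.57 and 1.90 CPM in Ext_4h, against 1.44, 1.52 and 2.08 CPM in Ctrl, with overlap through Ext_4h replicate 3.

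Transport into the cilium showed the same direction. Of 59 genes of intraflagellar transport, the BBSome and the transition zone, 10 were higher and 0 lower (16.9%), 52 had a log2 fold change above 0, and the median was 0.21. These genes summed to 806, 797 and 759 CPM in Ext_4h, against 671, 642 and 726 CPM in Ctrl. wdr35.S, an intraflagellar transport A subunit, had 19.9, 20.6 and 20.4 CPM in Ext_4h, against 15.8, 17 and 15.6 CPM in Ctrl. ift81.L, a tubulin-binding B subunit, had 11.3, 11.99 and 9.95 CPM in Ext_4h, against 5.76, 7.16 and 8.98 CPM in Ctrl. Neither gene overlapped between the groups. Of 33 genes that specify multiciliated cells or amplify their centrioles, 2 were higher and 0 lower (6.06% higher against 3.70% of all genes). These were tfdp1.L and cep152.L.

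The number of higher cilia genes moved with single libraries of both groups, and the number over all genes, given above, moved the same way. With 1 library left out the median ranged from 0.14 to 0.23 for axoneme genes and from 0.17 to 0.23 for transport genes. Without Ctrl replicate 1, 6 axoneme members were higher, without Ctrl replicate 2, 7, and without Ctrl replicate 3, 28. Leaving out Ext_4h replicates 1, 2 or 3 gave 10, 6 and 20. With both Ctrl replicates 1 and 2 left out, which leaves 1 Ctrl library, the median of the axoneme list was 0.14. With the muscle level of each library as a covariate, 15 axoneme and 9 transport members were higher. The transport list had 7 without Ctrl replicate 1, 6 without Ctrl replicate 2 and 6 without Ext_4h replicate 2, against 12 without Ext_4h replicate 3. With surrogate variables as covariates the axoneme median was 0.10 and the transport median 0.09. The axoneme genes summed to 3953, 4341 and 4667 CPM in Ext_0h, and 0 of them were higher in Ext_4h against Ext_0h (median 0.04), while the median of Ext_0h over Ctrl was 0.14. In ATP_4h they summed to 4665, 3904 and 4365 CPM. The medians of ATP_4h over Ctrl were 0.08 for axoneme and 0.16 for transport genes, so this direction was not particular to the extract. Against ATP_4h, 3 axoneme and 0 transport members were higher in Ext_4h. Tubulin genes, as a whole family, lay the other way, with 22 of 27 below 0. Of these, 1 was lower at an unadjusted p under 0.05 (3.70% against 3.57% of all genes).

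Hox genes, which give cells their position along the trunk, were lower in Ext_4h. Of 32 tested, 19 were lower and 0 higher (59.4% against 3.57% of all genes). In 15 of the 32 all 3 Ext_4h libraries lay below Ctrl, beside 5.68% of all genes. The median log2 fold change was -1.48. The levels were low, and the list summed to 53.01, 50.2 and 33.6 CPM in Ext_4h, against 82.9, 121 and 53.1 CPM in Ctrl. Ctrl replicate 3 exceeded Ext_4h replicate 1 by a narrow margin. hoxa10.S had 2.27, 1.29 and 0.655 CPM in Ext_4h, against 3.73, 6.31 and 2.32 CPM in Ctrl (log2 fold change -1.58). hoxc9.S is described above, and its copy hoxc9.L overlapped between the groups, at 1.17, 1.14 and 0.524 CPM in Ext_4h and 2.95, 3.67 and 0.882 CPM in Ctrl, with a log2 fold change of -1.42, and of 0.11 without Ctrl replicates 1 and 2.

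Muscle genes were unequal across the same libraries. Of 17 tested, 10 were lower and 0 higher (58.8% lower against 3.57% of all genes). The median log2 fold change was -2.20, but 0 of the 17 had groups without overlap. ckm.L, muscle creatine kinase, had 9.28, 9.20 and 3.60 CPM in Ext_4h, against 21.9, 48.6 and 8.01 CPM in Ctrl. tnnc2.S, troponin C of fast muscle, had 0.825, 0.982 and 0 CPM in Ext_4h, against 2.95, 7.02 and 0.721 CPM in Ctrl. In both genes Ctrl replicate 3 lay below Ext_4h replicates 1 and 2.

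The count of lower Hox genes depended on Ctrl replicate 2 more than on Ctrl replicate 1, the libraries with the most muscle RNA. Without Ctrl replicate 1, 18 Hox members were lower (median -1.52), without Ctrl replicate 2, 6 (median -1.03), and without Ext_4h replicate 3, 11. With Ctrl replicates 1 and 2 both left out, which leaves 1 Ctrl library, the Hox median was -0.31. With the muscle level as a covariate 5 Hox members were lower (median -0.43). In these fits the muscle list itself had medians of 0.33 and -0.04. The second is near 0 by design, since the covariate was the summed level of the same muscle genes. Without either Ctrl replicate 2 or Ext_4h replicate 3 the muscle list had 0 lower members. Without Ext_4h replicate 1 it had 4. In Ext_0h the Hox list summed to 45.1, 57.3 and 44.3 CPM and muscle genes to 8.42, 31.0 and 31.7 CPM. In ATP_4h the Hox list summed to 98.5, 95.7 and 58.0 CPM and muscle genes to 303, 373 and 171 CPM. In ATP_0h (ATP, 0 h) the Hox list summed to 38.9, 74.6 and 45.8 CPM and muscle genes to 10.2, 121 and 26.9 CPM. Low Hox sums thus occurred directly after either stimulus as well, and were not particular to the extract. The 2 sums mostly moved together over the 15 libraries. The highest Hox sums, 121, 98.5 and 95.7 CPM in Ctrl replicate 2 and ATP_4h replicates 1 and 2, came with the highest muscle sums. Those were 303, 303 and 373 CPM. ATP_4h replicate 3 departed from this, with a Hox sum of 58.0 CPM beside 171 CPM of muscle RNA. In Ext_0h replicate 2 the Hox and muscle sums were 57.3 and 31.0 CPM. The cause of the low Hox sums was not tested.

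**Figure D4:**
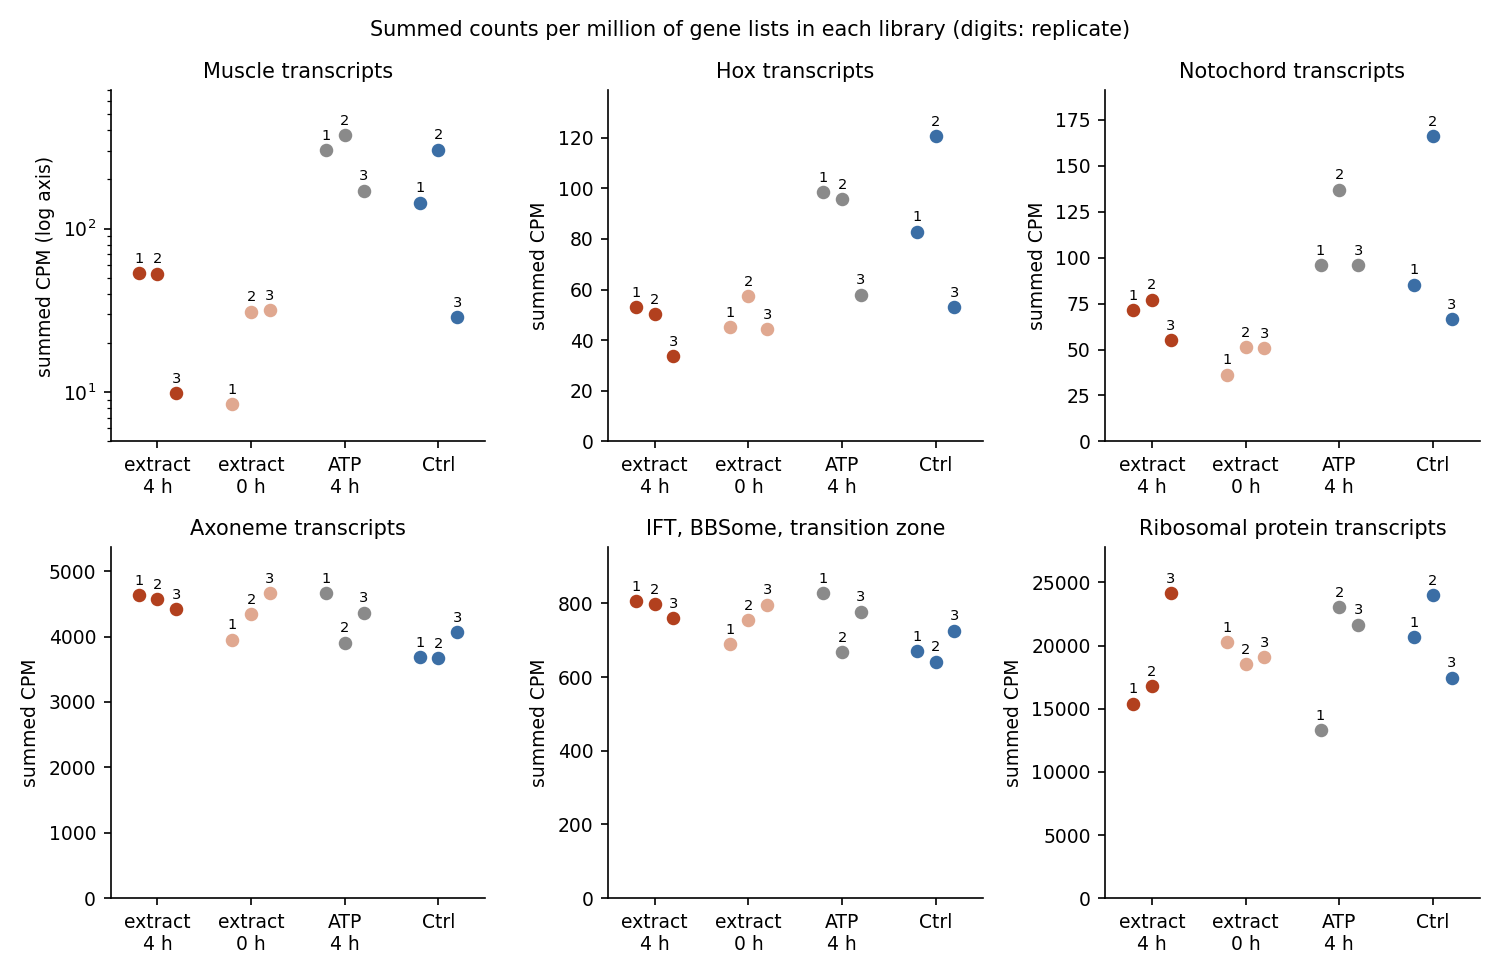
Panels show the summed level in CPM of 6 gene lists (y axis, a log axis for muscle only) in each library of Ext_4h, Ext_0h, ATP_4h and Ctrl, with digits for the replicate. The axoneme sums of Ext_4h (4415 to 4634) lie above those of Ctrl (3670 to 4065), while the muscle sums span 9.82 to 53.2 in Ext_4h and 28.8 to 303 in Ctrl.

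Genes of the extracellular matrix, its receptors and its proteases were lower more often than higher. Of 202 tested, 32 were lower and 5 higher (15.8% and 2.48%, against 3.57% and 3.70% of all genes). The median log2 fold change was -0.20. In 16 of the 202 all 3 Ext_4h libraries lay below Ctrl, which is near the share of all genes (5.68%). adamts4.S, an aggrecan-cleaving protease gene, had 0.206, 0.103 and 0.131 CPM in Ext_4h, against 1.96, 2.15 and 0.321 CPM in Ctrl. adamtsl4.L, a matrix protein gene linked to fibrillin, had 10.5, 9.97 and 8.64 CPM in Ext_4h, against 14.3, 15.9 and 11.7 CPM in Ctrl. adam21.L went the other way, with 0.825, 1.09 and 0.851 CPM in Ext_4h, against 0.262, 0.313 and 0.240 CPM in Ctrl. No group overlapped in these 3 genes. The copies adamts4.L and adamtsl4.S had log2 fold changes of -0.15 and -0.12, beside -3.33 for adamts4.S and -0.53 for adamtsl4.L. The collagen gene col2a1.L of notochord and cartilage had 39.7, 44.3 and 30.6 CPM in Ext_4h, against 51.6, 100.2 and 38.0 CPM in Ctrl, with overlap, and its log2 fold change was -0.73 with all libraries and 0.02 without Ctrl replicates 1 and 2. The count of lower matrix genes was 32 without Ctrl replicate 1, 6 without Ctrl replicate 2 and 58 without Ctrl replicate 3. It was 14 without Ext_4h replicate 3 and 9 with the muscle covariate. The median of the list was 0.04, the opposite sign, without Ctrl replicates 1 and 2, which leaves 1 Ctrl library.

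Regulators of embryonic patterning were lower in part. Of 73 patterning factors tested, 17 lay below Ctrl without overlap, beside 5.68% of all genes, and the median log2 fold change was -0.16. At an unadjusted p under 0.05, 1 was higher and 13 were lower (1.37% and 17.8%, against 3.70% and 3.57% of all genes). They include snai1.S and both copies of znf703, described above. Of the list's members, 10 were lower with the muscle covariate, 8 without Ctrl replicate 2 and 18 without Ext_4h replicate 3. In snai1.S, tbx1.L and dll1.S, Ctrl replicate 3 was clearly above every Ext_4h library. Of 17 cement gland and neural crest genes 5 were lower and 0 higher (29.4% lower against 3.57% of all genes). The list was not lower throughout, with 4 members above 0. agr2.L, agr2.S and pitx1.L overlapped between groups, with log2 fold changes of 0.04, -0.07 and -0.03. Among the lower ones, snai2.S had 2.48, 3.26 and 2.88 CPM in Ext_4h, against 4.32, 6.13 and 3.37 CPM in Ctrl. twist1.L had 0.756, 1.09 and 0.786 CPM in Ext_4h, against 3.47, 6.13 and 0.882 CPM in Ctrl. snai2 and twist1 mark migratory mesenchyme, and Ctrl replicates 1 and 2 were the highest in both genes. The log2 fold change of twist1.L was -2.01, and 0.01 without these libraries.

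In the Notch pathway a ligand on 1 cell releases the receptor's intracellular domain in its neighbour. Of 44 members, 7 were lower and 1 was higher (15.9% and 2.27%, against 3.57% and 3.70% of all genes). The ligand dll1.S is given above. The target gene hes1.L had 3.85, 3.88 and 3.08 CPM in Ext_4h, against 6.87, 8.23 and 5.29 CPM in Ctrl, with a log2 fold change of -0.92. The coactivator gene maml2.S had 0.275, 0.103 and 0.131 CPM in Ext_4h, against 0.982, 0.850 and 0.481 CPM in Ctrl. Both were lower without overlap, whereas the copy hes1.S overlapped. The copy maml2.L had a log2 fold change of -0.07, beside -2.19 for maml2.S. The lower count was 4 without Ctrl replicate 2 and 5 with the muscle covariate. Without Ctrl replicates 1 and 2, which leaves 1 Ctrl library, the log2 fold changes of hes1.L and maml2.S were -0.55 and -1.49.

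Among Wnt pathway genes 13 of 98 were lower and 1 higher (13.3% and 1.02%, against 3.57% and 3.70% of all genes). The secreted Wnt antagonist sfrp2.S had 3.58, 3.98 and 4.58 CPM in Ext_4h, against 7.98, 6.17 and 6.33 CPM in Ctrl, without overlap. Its copy sfrp2.L had 1.24, 1.76 and 0.786 CPM in Ext_4h, against 3.14, 5.86 and 1.60 CPM in Ctrl, and Ctrl replicate 3 lay within the Ext_4h range. Without Ctrl replicate 2, 7 Wnt members were lower, and with the muscle covariate 5 were. With Ctrl replicate 3 as the only Ctrl library, the log2 fold changes of sfrp2.S and sfrp2.L were -0.64 and -0.32. Among genes of BMP and TGF-beta signalling 12 of 94 were lower and 1 higher (12.8% and 1.06%), with a median of -0.17. fstl1.L, a secreted follistatin-like protein, had 13.9, 14.2 and 16.96 CPM in Ext_4h, against 21.3, 31.9 and 17.6 CPM in Ctrl. The corepressor gene tgif2.L had 3.16, 3.00 and 4.06 CPM in Ext_4h, against 6.35, 4.34 and 5.05 CPM in Ctrl. Neither overlapped, and the margin of fstl1.L to Ctrl replicate 3 was under 1 CPM. This list had 5 lower members without Ctrl replicate 2, 5 without Ext_4h replicate 2 and 8 without Ext_4h replicate 1. It had 18 without Ctrl replicate 3, 20 without Ext_4h replicate 3 and 8 with the covariate. With Ctrl replicate 3 as the only Ctrl library, the log2 fold changes of fstl1.L and tgif2.L were -0.22 and -0.57.

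Genes of the basal layer and the early epidermis gave 8 of 48 lower and 0 higher (16.7% lower against 3.57% of all genes). Their median log2 fold change was 0.00. msx1.S, a homeobox target of BMP signalling, had 32.0, 36.2 and 50.5 CPM in Ext_4h, against 72.3, 50.3 and 57.8 CPM in Ctrl. The groups met at Ext_4h replicate 3, whereas msx1.L was lower without overlap, with 13.1, 16.02 and 29.7 CPM in Ext_4h, against 33.0, 30.6 and 30.5 CPM in Ctrl. klf17.L, a Krüppel-like factor gene, had 1.44, 1.24 and 1.64 CPM in Ext_4h, against 2.75, 2.82 and 2.72 CPM in Ctrl. The lower count was 5 without Ext_4h replicate 1, 4 without Ext_4h replicate 2 and 7 in each of the other fits that left out 1 library. With Ctrl replicate 3 as the only Ctrl library, the log2 fold changes of msx1.S and klf17.L were -0.54 and -0.92. In keratins and other intermediate filament genes 4 of 42 were lower and 1 higher (9.52% and 2.38%, against 3.57% and 3.70% of all genes). krt12.2.S had 43.4, 42.3 and 25.1 CPM in Ext_4h, against 79.5, 235 and 43.5 CPM in Ctrl, with Ctrl replicate 3 barely above Ext_4h replicate 1. Lower keratin-list members numbered 1 without Ctrl replicate 2, 8 without Ctrl replicate 3 and 12 without Ext_4h replicate 3.

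Ion channels and calcium handling showed few differences. Of 110 ion channel genes 7 were higher and 1 lower (6.36% and 0.909%). kcnq5.L, a voltage-gated potassium channel gene, had 5.29, 5.06 and 3.80 CPM in Ext_4h, against 2.75, 2.77 and 2.64 CPM in Ctrl. kcnj16.S, an inward rectifier potassium channel gene, had 18.6, 16.5 and 15.8 CPM in Ext_4h, against 9.69, 13.02 and 13.5 CPM in Ctrl. Neither overlapped, and the higher count was 1 without Ext_4h replicate 1, 3 without Ext_4h replicate 2 and 11 without Ext_4h replicate 3. Of 81 calcium signalling genes 6 were higher and 4 lower (7.41% and 4.94%, against 3.70% and 3.57% of all genes). The counts were 2 and 2 without Ext_4h replicate 2, and 3 and 3 without Ext_4h replicate 1. They were 9 and 8 without Ctrl replicate 3, and 10 and 6 without Ext_4h replicate 3. The list includes plcg2.L, a phospholipase C that raises calcium, with 22.0, 26.2 and 19.9 CPM in Ext_4h, against 14.8, 13.8 and 17.6 CPM in Ctrl. The calmodulin gene calm2.L had 112, 111 and 129.8 CPM in Ext_4h, against 163, 172 and 128 CPM in Ctrl, with overlap. sstr5.S, a somatostatin receptor gene, had 38.0, 35.7 and 34.6 CPM in Ext_4h, against 30.6, 25.3 and 27.2 CPM in Ctrl, without overlap. It was the 1 higher gene among 19 transmitter receptor genes (5.26%). In that list 2 were lower (10.5%), sstr4.L and chrna1.L, with log2 fold changes of -2.02 and -1.39. sstr4.L had 0.275, 0.310 and 0.327 CPM in Ext_4h, against 0.916, 2.33 and 0.401 CPM in Ctrl. chrna1.L had 0.413, 0.207 and 0.196 CPM in Ext_4h, against 1.18, 0.761 and 0.160 CPM in Ctrl, with overlap. Both were lowest among the Ctrl libraries in replicate 3. With Ctrl replicate 3 as the only Ctrl library, the log2 fold changes were -0.38 for sstr4.L and 0.72 for chrna1.L.

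Of 39 purinergic genes, the receptors and enzymes for extracellular nucleotides, 3 were lower and 0 higher (7.69% lower against 3.57% of all genes). The 3 were enpp2.L, adora2a.L and slc29a2.L, and in each the groups overlapped. Of 162 innate immune genes 5 were higher and 9 lower (3.09% and 5.56%, against 3.70% and 3.57% of all genes). Leaving out each library in turn gave 1 to 8 higher (1 without Ext_4h replicate 1, 8 without Ctrl replicate 3). It gave 2 to 18 lower (2 without Ext_4h replicate 1, 18 without Ext_4h replicate 3). tnfsf15.L, a cytokine of the TNF family, had 6.12, 6.15 and 5.70 CPM in Ext_4h, against 4.06, 3.18 and 4.33 CPM in Ctrl. The chemokine gene cxcl12.L had 2.89, 3.88 and 1.51 CPM in Ext_4h, against 10.5, 21.6 and 4.73 CPM in Ctrl, highest in Ctrl replicates 1 and 2. Its copy cxcl12.S had a log2 fold change of -0.05, beside -2.16 for cxcl12.L. Of 130 heat shock and chaperone genes 2 were higher and 4 lower (1.54% and 3.08%). Of 59 genes of endoplasmic reticulum stress and the integrated stress response 0 were higher and 3 lower (5.08% lower). Of 33 apoptosis genes 1 was higher and 0 lower (3.03% higher). Over all genes 3.70% were higher and 3.57% lower. chac1.L, a target of the integrated stress response, had 21.1, 22.8 and 40.2 CPM in Ext_4h, against 39.5, 49.2 and 45.4 CPM in Ctrl. Its Ext_4h replicate 3 lay inside the Ctrl range.

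Genes of growth shifted little and in a way that differed between libraries. Of 113 cell cycle genes 10 were lower and 0 higher (8.85% lower against 3.57% of all genes), with a median of -0.08. nusap1.L, a spindle protein gene, had 12.8, 14.5 and 14.5 CPM in Ext_4h, against 21.6, 22.3 and 16.3 CPM in Ctrl. e2f1.L, a transcription factor of S phase entry, had 4.95, 5.58 and 5.89 CPM in Ext_4h, against 7.13, 7.20 and 7.61 CPM in Ctrl. Both were lower without overlap. The copies nusap1.S and e2f1.S had log2 fold changes of -0.23 and -0.07, beside -0.53 for nusap1.L and -0.42 for e2f1.L. The lower count of the cell cycle list was 3 without Ext_4h replicate 1, 6 without Ext_4h replicate 2, 5 without Ctrl replicate 1 and 19 without Ctrl replicate 3. Of 86 ribosome biogenesis genes 7 were lower and 0 higher (8.14% lower against 3.57% of all genes). Their lower count was 3 and 2 without Ext_4h replicates 1 and 2, 2 without Ctrl replicate 1 and 18 without Ext_4h replicate 3.

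Ribosomal protein genes had 0 of 139 members at an unadjusted p under 0.05 in either direction, although 129 had a log2 fold change below 0, with a median of -0.14. They summed to 15391, 16802 and 24157 CPM in Ext_4h, against 20650, 23990 and 17454 CPM in Ctrl. The highest single library was Ext_4h replicate 3 and the groups overlapped fully. Respiratory chain genes were alike, with 0 of 128 at that p, 118 below 0, a median of -0.16, and sums of 3306, 3552 and 4501 CPM in Ext_4h, against 4148, 5017 and 3536 CPM in Ctrl. Without Ext_4h replicate 3, 14 ribosomal protein genes and 21 respiratory chain genes were lower. The ribosomal protein median turned to 0.11 without Ctrl replicates 1 and 2 and to 0.05 with surrogate variables, and the respiratory chain median to 0.10 and 0.03.

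Since the stimulus was made from blastula embryos, transcripts of that stage were looked at in their own right. Of 81 genes of the blastula and the maternal store in the table, 11 had no count in any of the 6 libraries, among them mix1.L, mix1.S, nodal6.L and gdf3.S, and 24 were abundant enough to test. Of these 0 were higher and 0 lower, with a median log2 fold change of -0.09. They summed to 155, 153 and 176 CPM in Ext_4h, against 174, 164 and 172 CPM in Ctrl, with overlap. In Ext_0h they summed to 176, 161 and 167 CPM.

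**Figure D5:**
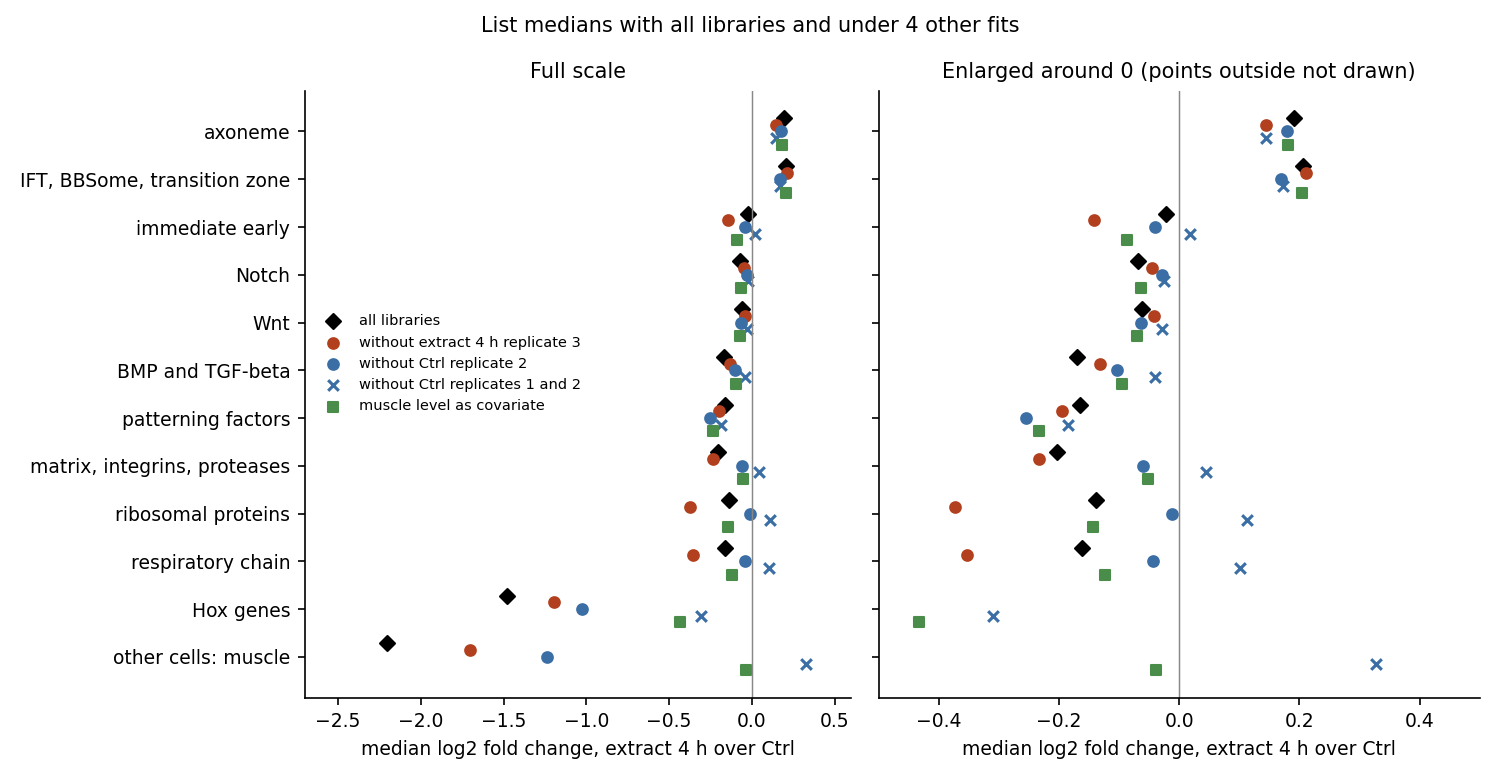
For 12 gene lists the median log2 fold change of the tested members, Ext_4h over Ctrl, is shown (x axis) with all libraries (diamonds), without Ext_4h replicate 3, without Ctrl replicate 2, without Ctrl replicates 1 and 2, and with the muscle level as a covariate. The right panel enlarges the range around 0. The axoneme and transport medians lie above 0 in the 5 fits drawn, while the Hox median is -1.48 with all libraries and -0.31 without Ctrl replicates 1 and 2.

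Homeologs are measured in the same 6 libraries and share some reads, so their likeness is no independent support. In 5618 pairs both copies were tested, in 700 at least 1 copy had an unadjusted p under 0.05, and in 100 both had one. The copies pointed the same way in 99 of the 100, with 69 pairs lower and 30 higher in Ext_4h. rhob, znf703, jun, msx1, tnni2 and twist1 were among the lower pairs, and angptl4, rreb1, nr4a1 and barx2 among the higher. macc1, a gene linked to growth factor signalling, had log2 fold changes of 0.48 and 0.57 in macc1.L and macc1.S. bhlha9, a basic helix-loop-helix factor gene, had -1.86 in bhlha9.L and -2.19 in bhlha9.S. bhlha9.S had 1.99, 2.07 and 1.05 CPM in Ext_4h, against 5.69, 13.7 and 3.69 CPM in Ctrl, with Ctrl replicates 1 and 2 highest. macc1 and bhlha9 were chosen after their values were seen.

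Higher and lower genes differed in kind. RefSeq annotates 8.08% of the 891 higher genes as long non-coding RNA, against 0.583% of the 858 lower genes and 4.17% of all genes tested. Symbols that begin with LOC, which have no named counterpart, made up 43.5% of higher genes, 16.3% of lower genes and 27.4% of all.

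Set against Ext_0h, which shares the extract but not the 4 h, Ext_4h differed less. With edgeR's quasi-likelihood test 0 genes had an adjusted p under 0.05, the smallest being 0.570 for angptl4.S. An unadjusted p under 0.05 was reached by 569 genes, 316 higher (1.31%) and 253 lower (1.05%). rhob.L had 24.8, 29.2 and 35.0 CPM in Ext_4h, against 52.6, 45.9 and 45.7 CPM in Ext_0h. znf703.L had 31.5, 32.8 and 36.3 CPM in Ext_4h, against 51.7, 54.96 and 48.5 CPM in Ext_0h. angptl4.S had 26.5, 28.1 and 29.5 CPM in Ext_4h, against 16.97, 18.8 and 18.5 CPM in Ext_0h. None of the 3 genes overlapped, and their log2 fold changes were -0.70, -0.63 and 0.63. Immediate early genes had 3 members higher and 10 lower, and BMP and TGF-beta genes had 8 lower. Hox genes had 0 lower, with a median of -0.08.

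Set against ATP_4h, which shares the 4 h but not the extract, 0 genes had an adjusted p under 0.05 in edgeR's test, the smallest being 0.966 for casq1.S, a calcium store protein gene of muscle that was picked for this value. An unadjusted p under 0.05 was reached by 1029 genes, 317 higher (1.32%) and 712 lower (2.96%). Adding the replicate number to the fit gave 7 called genes, each of them lower in Ext_4h. Without Ext_4h replicate 1, 2 or 3 the higher count was 179, 150 and 978, and without ATP_4h replicate 1 it was 1016. Of the lower ones, 16 were in the list of 17 muscle genes, 18 in that of 32 Hox genes and 33 in that of 202 matrix genes, and ATP_4h held the more muscle RNA (171 to 373 CPM, given above). znf703.L had 31.5, 32.8 and 36.3 CPM in Ext_4h and 35.3, 31.3 and 30.9 CPM in ATP_4h. ier5l.S had 16.2, 17.8 and 21.4 CPM in Ext_4h and 16, 17.9 and 18.9 CPM in ATP_4h. jun.L had 17.5, 19.0 and 17.7 CPM in Ext_4h and 15.02, 17.8 and 17.1 CPM in ATP_4h. In these 3 genes the 4 h groups overlapped, and the log2 fold changes between them were 0.05, 0.07 and 0.12.

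nr4a1.L, chosen after its values were seen, had 13.1, 16.2 and 18.5 CPM in Ext_4h and 23.7, 30.6 and 26.3 CPM in ATP_4h. The groups did not overlap, and the log2 fold change, Ext_4h over ATP_4h, was -0.75. The unadjusted edgeR p was 0.0012, and no gene had an adjusted p under 0.05 in this test. snai1.S had 4.40, 3.72 and 3.67 CPM in Ext_4h and 5.16, 8.95 and 5.88 CPM in ATP_4h, also without overlap. rhob.L had 24.8, 29.2 and 35.0 CPM in Ext_4h and 34.5, 42.3 and 40.5 CPM in ATP_4h, so that the highest Ext_4h library lay above the lowest ATP_4h library. The genes of glucose release overlapped between the stimuli. g6pc1.1.L had 38.4, 40.6 and 23.2 CPM in Ext_4h and 19.8, 35.1 and 19.7 CPM in ATP_4h, and pck1.S had 316, 326 and 216 CPM in Ext_4h and 202, 268 and 249 CPM in ATP_4h.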

How the data were processed

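Libraries were made from total RNA depleted of ribosomal RNA with a stranded kit and read from 1 end, per the labels' protocols. The authors used RSEM to estimate the expected counts that they deposited for each gene, per the file headers. The submitters' processing notes also name fastp, STAR and limma. Versions, genome build and annotation are not given in the sources used here. Since RSEM divides reads among genes, 69.1% of the values were whole. The authors also deposited log2 CPM adjusted for surrogate variables (28009 genes), used here as an alternative only. Other samples' columns numbered 0.

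Expected counts were rounded, filtered with filterByExpr (24052 of 42638 genes) and scaled by TMM factors. All 15 libraries entered 1 fit of edgeR 4.0.16 (R 4.3.3), quasi-likelihood and robust, with 1 coefficient per group taken from the sample titles. P-values are two-sided and were adjusted by Benjamini-Hochberg over all genes tested, with 0.05 as the threshold. Standard errors were taken from the fold change and the square root of the F value. CPM use TMM library sizes. The code was tested on simulated counts. Precision rests on 3 libraries a group and the depths given above.

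Gene lists were written by symbol, and genes that only shared a name stem, such as rps6k kinases among ribosomal proteins, were removed. The members and lists were chosen with earlier results of these data known, so no list is independent evidence. Counts in a list are of members at an unadjusted p under 0.05. Genes named are the 12 with the smallest p in each direction and the 5 with the largest fold (mean of at least 1 CPM, no overlap between groups), up to 3 of each list by p, and their homeologs. The text marks genes outside this rule, which were picked with their values known. Gene types come from the RefSeq table of Xenopus_laevis_v10.1, which matched 40077 symbols.

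Alternatives were DESeq2 1.42.0, limma 3.58.1 (voom, and on the adjusted table), surrogate variables (sva 3.50.0), RLE factors, other filters, ribosomal RNA left out, homeologs summed, the 2 groups alone, a replicate block and leaving out each library. Chosen after the data were seen were leaving out Ctrl replicates 1 and 2 together, the muscle level as a covariate, and summing Ext_4h replicates 1 and 2.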

Additional observations from a re-analysis of the deposited data

How the results depend on the processing

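The number of called genes depended on the test and on the libraries used. In Ext_4h against Ctrl, where edgeR's quasi-likelihood test called 0 genes at an adjusted p under 0.05, DESeq2 called 13 and a fit with 3 surrogate variables 43. limma called 1788 on the authors' deposited adjusted table, which had 3267 higher and 3153 lower genes at an unadjusted p under 0.05, and this test does not count the degrees of freedom spent on the adjustment. The muscle covariate gave 2 called genes, g6pc1.1.L higher and XB5810926.L lower, both named after their values were seen. Leaving out 1 library gave 0 to 2 called genes, 407 to 1854 higher and 425 to 1648 lower genes at an unadjusted p under 0.05. Without Ctrl replicates 1 and 2 there were 0 called, 340 higher and 183 lower, and with Ext_4h replicates 1 and 2 summed 0 called, 420 higher and 498 lower. The cause of these differences was not tested, except that leaving out or summing libraries leaves fewer samples.

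With the replicate number as a block, 0 genes were called against Ctrl (1273 higher and 1217 lower at an unadjusted p under 0.05), 0 against Ext_0h and 7, all lower, against ATP_4h. The numbers were not taken to pair the samples, since deviations of same-numbered Ext_4h and Ctrl libraries correlated at 0.021, 0.066 and 0.041, and those of Ext_4h and ATP_4h at 0.391, -0.060 and 0.422, which are not all above 0.1. All 24 genes with the smallest p kept their direction in the 19 alternatives run for each, and rhob.L was called in 4 of these. The 24 genes were chosen for groups that did not overlap, so leaving out or summing libraries could hardly turn them. Their kept direction is therefore no test of the result. Other named genes turned direction without Ctrl replicates 1 and 2, among them vim.L (1.49 on the log2 scale, against -1.44 with all libraries), tuba1b.S (0.27 against -1.98) and tnnc2.L (1.09 against -2.21). The medians of the muscle, matrix, ribosomal protein and respiratory chain lists also turned. Of the 330 lower genes past 2-fold, 60 remained at that p and direction with the muscle covariate, and of the 198 higher ones 166 did. Without Ctrl replicates 1 and 2, 221 of the 330 and 198 of the 198 kept their direction. With 3 libraries a group, small differences in scarce genes were not detectable.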
